A study of Mus musculus with 6 samples.

Results

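Peroxisomes are small organelles bounded by a single membrane. They shorten very long and branched fatty acids, begin the synthesis of ether lipids and break down the hydrogen peroxide that their oxidases make. Peroxins, the products of the *Pex* genes, bring enzymes and membrane proteins into the organelle and divide it, and in muscle peroxisomes work beside the far more abundant mitochondria. Here 31 genes of this organelle, of 53084 genes in the count table, were examined in mouse muscle with and without *Tarsl2*. They were picked by name, as 13 peroxins and 18 enzymes, transporters and membrane proteins, and all 31 had enough reads to be tested.

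The samples were muscle from 3 Tarsl2+/+ (WT) and 3 Tarsl2-/- (KO) male mice, labelled C57BL/6 and from a line made in and crossed to C57BL/6J, 6 weeks old and fed standard chow, 1 library per mouse. The KO mice lack a genomic fragment with exon 3 of *Tarsl2*, a relative of the threonyl-tRNA synthetase gene, in every cell, and the line was made by injection of Cas9 and guide RNAs into zygotes. Which muscle was taken is not given in the sources used here, nor whether mice were littermates, so p-values measure the spread between these mice only. In bulk RNA, fewer cells of a type and less RNA per cell cannot be told apart.

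Library totals were between 16176591 and 20123767 counts. *Tarsl2* itself was between 24.4 and 32.1 CPM in WT and between 1.80 and 2.23 CPM in KO muscle, where CPM is the count as a share of the library size after TMM scaling. The sample records mention a retinal extraction, but no library held more than 7 counts of any of 10 retinal genes, whereas 8 skeletal muscle genes summed to between 80113 and 84387 CPM in WT and between 89723 and 97090.4 in KO muscle, without overlap, and 3 of them (*Ckm*, *Des* and *Actn3*) passed the threshold given next, all higher in KO muscle. Of the 15075 genes tested over the whole table, 342 (2.27%) passed an adjusted p of 0.05 in the quasi-likelihood test of edgeR, 135 (0.896%) higher and 207 (1.37%) lower in KO muscle. The 8 leukocyte markers summed to between 935 and 1090.2 CPM in WT and between 512 and 658 in KO muscle. Most of this sum was *Lyz2*, at between 823 and 965 CPM in WT and between 436 and 567 in KO muscle. All 7 tested were lower in KO muscle in value, and 3 passed (*Adgre1*, *Csf1r* and *Lyz2*). The 6 erythrocyte markers summed to between 4748 and 10392 CPM in WT and between 4166 and 4536 in KO muscle. All 6 were lower in KO muscle in value and none passed. The part of these muscle and blood markers in the peroxisomal values was not tested.

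Of the 31 peroxisomal genes, 1 (3.23%) passed this threshold, against 2.27% of all tested genes, namely *Pxmp2*, which was higher in KO muscle. It encodes a channel protein of the peroxisomal membrane. None of the 13 peroxins passed by edgeR (0 by limma-voom and 0 by DESeq2), although 3 had an unadjusted p under 0.05, and 7 of the other 18 had, against 19.8% of all tested genes. The peroxins had a median log2 fold change (KO over WT) of 0.15 and the other 18 members one of 0.17, beside 0.00253 over all tested genes. The fold change was above 0 in 9 of the 13 peroxins and in 15 of the other 18. Over all 15075 tested genes it was above 0 in 7603. KO mouse 589 had the highest level of the 6 mice in 22 of the 31 genes. The share of all tested genes that were highest in mouse 589 was not computed. The library of mouse 589 is titled KOT1-589, whereas the titles of the other KO libraries begin with KO1. What the difference stands for is not given in the sources used here. Without that mouse the medians were 0.027 and 0.063.

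Levels of different genes were compared as RPKM, which divides that share by the length of the exons. In WT muscle the 31 genes lay between 0.612 and 65.0 RPKM. The highest was *Scp2*, whose products include the thiolase for branched acyl chains and a lipid carrier, at 65.0 ± 7.402 RPKM (SD, n = 3). Next were *Phyh*, which begins the alpha-oxidation of phytanic acid, at 51.8 ± 1.10, and *Cat*, the catalase that breaks down hydrogen peroxide, at 45.6 ± 1.13. *Crat*, carnitine acetyltransferase, which mitochondria also hold, was at 37.1 ± 4.30. The highest peroxin was *Pex2*, at 31.6 ± 1.39 RPKM, followed by *Pex19* at 18.6 ± 2.88 and *Pex16* at 13.6 ± 1.601. The lowest members were *Pex11g* at 0.696 ± 0.181, *Pex26* at 0.614 ± 0.0424 and *Acox3* at 0.612 ± 0.0701, and the last 2 lay within each other's spread. Counts per library ran from 32 for the least counted member to 5180 for the most counted one.

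**Figure D1:**
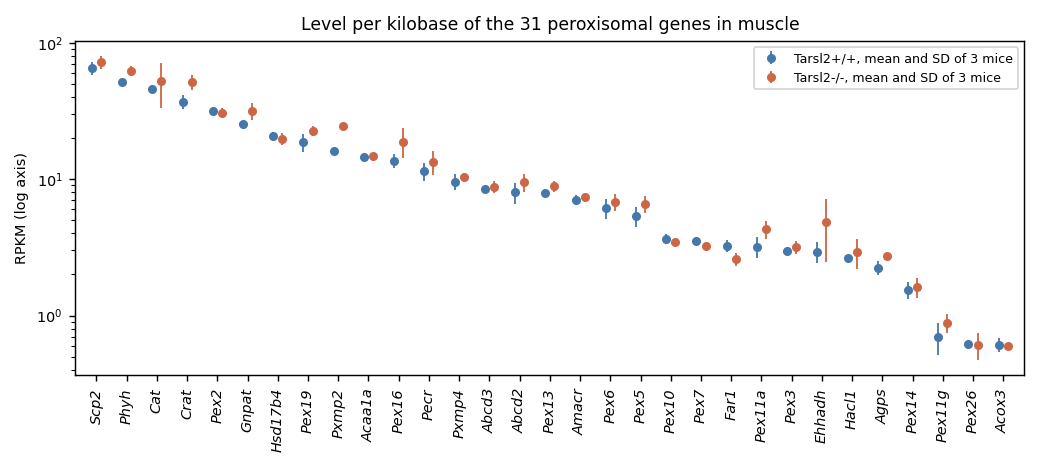
Level of each of the 31 genes in RPKM on a log axis, as mean and SD of the 3 WT mice (blue) and the 3 KO mice (red), ordered by the WT mean. *Scp2* was highest at 65.0 RPKM in WT muscle and *Acox3* lowest at 0.612, and *Cat* and *Ehhadh* had a wide spread among the KO mice.

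Promoter sequences were taken from a table of RefSeq promoters (GRCm38.p6), in which 24 of the 31 genes were matched, from 250 bases before to 50 bases after the start. Those not matched in this table were *Pex2*, *Pex19*, *Abcd2*, *Pxmp2*, *Hsd17b4*, *Amacr* and *Crat*. The matched promoters were searched on both strands for 6 motifs, and 4 promoters are shown. The first 3 belong to the ether lipid enzymes, whose genotypes did not overlap and which did not all point the same way, and the last to *Phyh*, the one of the 3 most abundant members whose genotypes did not overlap. Capitals mark a motif: the E-box CACGTG, the CCAAT box (or ATTGG on the other strand) and the nuclear receptor half-site AGGTCA (or TGACCT).
*Gnpat*, plus strand, chr8:124862783-124863082: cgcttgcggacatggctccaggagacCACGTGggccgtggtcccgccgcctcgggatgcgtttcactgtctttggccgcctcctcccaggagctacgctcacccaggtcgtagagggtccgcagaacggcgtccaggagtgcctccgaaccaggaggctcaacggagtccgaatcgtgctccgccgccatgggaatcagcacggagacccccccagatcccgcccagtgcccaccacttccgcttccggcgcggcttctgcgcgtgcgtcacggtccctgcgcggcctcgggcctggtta
*Agps*, plus strand, chr2:75831927-75832226: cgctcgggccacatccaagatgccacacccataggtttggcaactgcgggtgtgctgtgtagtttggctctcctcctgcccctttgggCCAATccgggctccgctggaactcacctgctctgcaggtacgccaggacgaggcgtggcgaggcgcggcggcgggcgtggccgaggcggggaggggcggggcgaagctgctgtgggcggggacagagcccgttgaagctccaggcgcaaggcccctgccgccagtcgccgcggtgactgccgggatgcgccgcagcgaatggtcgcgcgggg
*Far1*, plus strand, chr7:113513584-113513883: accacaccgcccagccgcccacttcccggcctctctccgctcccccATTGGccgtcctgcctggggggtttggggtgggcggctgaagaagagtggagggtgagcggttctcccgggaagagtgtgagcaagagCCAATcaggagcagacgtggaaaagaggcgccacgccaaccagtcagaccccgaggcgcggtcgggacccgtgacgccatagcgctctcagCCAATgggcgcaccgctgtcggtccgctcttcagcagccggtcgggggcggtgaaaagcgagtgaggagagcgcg
*Phyh*, plus strand, chr2:4918746-4919045: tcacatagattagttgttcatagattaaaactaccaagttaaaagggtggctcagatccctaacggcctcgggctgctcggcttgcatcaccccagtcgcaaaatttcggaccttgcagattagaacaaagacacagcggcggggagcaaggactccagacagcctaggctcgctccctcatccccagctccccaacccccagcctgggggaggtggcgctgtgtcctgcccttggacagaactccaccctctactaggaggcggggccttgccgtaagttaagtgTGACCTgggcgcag

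The form of the peroxisome proliferator response element searched for joins 2 exact half-sites AGGTCA in tandem with any 1 base between. This arrangement was in none of the windows of the 24 members and in 0.0396% of all 32851 promoter windows. With so rare a sequence, a count of 0 does not show that the members lack the element. Inexact copies and copies outside the windows were not searched for. The 24 members had 28 windows. A member was counted if any of its windows held the motif, whereas the percentages are of single windows. The single half-site was in 4 members (*Cat*, *Pex11g*, *Phyh* and *Scp2*) and in 16.3% of all windows, and the ERR element TCAAGGTCA, which contains it, in none and in 0.423%. CCAAT was in 11 of the 24 members and in 37.4% of all windows, and *Far1* held 3 copies. CACGTG was in 1 member, *Gnpat*, and in 7.15% of all windows. The NRF1 element, GCGC and TGCGC with any 1 base between, was in 3 members (*Abcd3*, *Pex10* and *Pex11g*) and in 4.60% of all windows.

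Among the membrane proteins and transporters, *Pxmp2* (chromosome 5 of GRCm38, 110274282 to 110286186, minus strand) was at 18.4, 20.2 and 19.0 CPM in WT mice 583, 584 and 595 and at 28.4, 31.4 and 28.3 in KO mice 588, 589 and 591. The lowest KO mouse was well above the highest WT mouse, with mouse 589 a little above the other KO mice. The means were 19.2 ± 0.957 and 29.4 ± 1.74 CPM (SD, n = 3), or 0.61 on the log2 scale (SE, its standard error, 0.093, adjusted p = 0.00947 by edgeR), 1.53-fold higher in KO muscle. A permutation of the mice gave p = 0.1 (exact, two-sided), the lowest value that this number of mice can give. With each library left out in turn the log2 fold change stayed between 0.56 and 0.65, and it missed the threshold only without WT mouse 583 (0.58, adjusted p = 0.0592 by edgeR). The exons of *Pxmp2* share 129 bases with those of *Gm15788* on the opposite strand, which had 2 counts over the 6 libraries. *Abcd2* and *Abcd3* encode half-transporters that carry fatty acyl-CoA into the peroxisome. *Abcd2* was at 43.3, 57.3 and 42.0 CPM in the WT mice and at 53.1, 65.7 and 50.01 in the KO mice, so that WT mouse 584 lay above KO mice 588 and 591. The log2 fold change was 0.24 (adjusted p = 0.356, interval from -0.06 to 0.54). *Abcd3* had 0.048, with a 95% interval from -0.16 to 0.25, and *Pxmp4*, another membrane protein, 0.12, with an interval from -0.12 to 0.36.

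**Figure D2:**
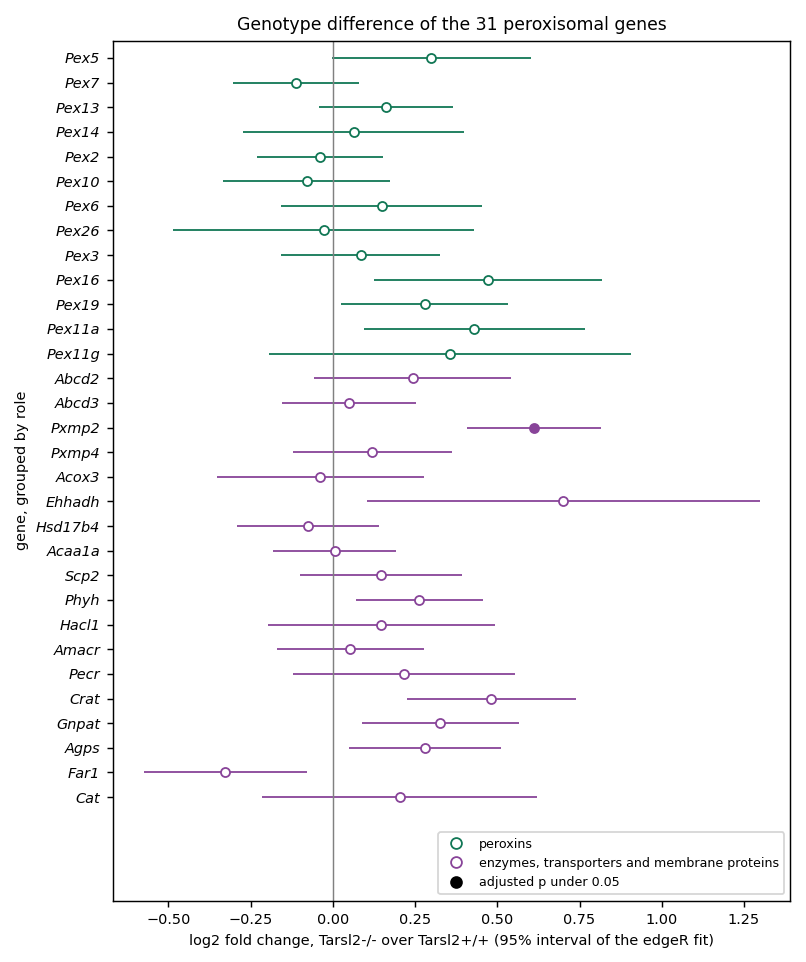
Log2 fold change (KO over WT) of each of the 31 genes with the 95% interval of the edgeR fit, peroxins in green and the others in purple, with a filled point for an adjusted p under 0.05. *Pxmp2* is the only filled point, at 0.61, and *Ehhadh*, at 0.70, has the widest interval.

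Genotypes did not overlap in 8 of the 31 members (25.8%), 7 of them among the 18 enzymes, transporters and membrane proteins (38.9%). Of all tested genes 24.6% had such genotypes, close to the share of the 31 members. The 3 enzymes of ether lipid synthesis were all among these 8. *Gnpat* adds the first acyl chain to dihydroxyacetone phosphate and *Agps* exchanges that chain for a fatty alcohol. *Gnpat* (chromosome 8, 124863033 to 124890057) was at 86.2, 96.7 and 88.0 CPM in the WT mice and at 112, 130.2 and 98.2 in the KO mice. The KO mice lay above all WT mice, mouse 591 only just, and the log2 fold change was 0.33 (SE 0.11, adjusted p = 0.130 by edgeR, interval from 0.09 to 0.57). *Agps* (chromosome 2, 75832177 to 75931350) was at 22.2, 22.8 and 18.2 CPM against 26.4, 24.5 and 25.8, with every KO mouse above every WT mouse and mouse 589 the lowest of the KO mice. This was a log2 difference of 0.28 (SE 0.11, adjusted p = 0.172). *Far1*, the reductase that supplies the fatty alcohol, went the other way in value. It (chromosome 7, 113513834 to 113571511) was at 24.0, 25.1 and 29.2 CPM in the WT mice and at 23.2, 18.7 and 20.5 in the KO mice, so that every KO mouse lay below every WT mouse. The difference on the log2 scale was -0.33 (SE 0.11, adjusted p = 0.142), and its interval ran from -0.58 to -0.08. None of the 3 passed the threshold over all genes by edgeR, and each had an unadjusted p under 0.05 (0.0115, 0.0222 and 0.0142), as had 19.8% of all tested genes. Leaving out each library in turn kept the log2 fold changes between 0.22 and 0.42 for *Gnpat*, between 0.18 and 0.34 for *Agps* and between -0.41 and -0.24 for *Far1*. *Gnpat* shares 88 exon bases with *2810004N23Rik* on the opposite strand, which had 3537 counts over the 6 libraries against 11084 for *Gnpat*.

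Among the enzymes that handle branched, alpha-oxidised and short acyl chains, all 5 fold changes were above 0 and none passed the threshold. *Crat* (chromosome 2, 30400471 to 30415813) was at 177, 223 and 200.1 CPM in the WT mice and at 266, 319 and 252 in the KO mice, without overlap. The log2 fold change of 0.48 (SE 0.12, adjusted p = 0.0579 by edgeR) was just short of the threshold, and it was past it with DESeq2 (0.48, adjusted p = 0.00344) and without WT mouse 584 (0.57, adjusted p = 0.0303 by edgeR). Over the fits that left out 1 library, its adjusted p ran from 0.0303 to 0.208. *Phyh* (chromosome 2, 4919019 to 4938730), whose promoter is shown with a half-site near its end, was at 95.8, 99.9 and 98.5 CPM in the WT mice and at 125, 121 and 107 in the KO mice. The WT mice lay close together and below every KO mouse, and the log2 fold change was 0.26 (SE 0.088, adjusted p = 0.131). *Hacl1*, the lyase that follows *Phyh* in alpha-oxidation, had 0.15, with an interval from -0.20 to 0.49. The exons of *Hacl1* share 108 bases with those of *Btd* on the opposite strand. *Btd* had 1866 counts over the 6 libraries, against 1494 for *Hacl1*. *Amacr*, the racemase for branched acyl-CoA, had 0.053 (-0.17 to 0.28), and *Pecr*, a reductase of enoyl-CoA, had 0.22 (-0.12 to 0.55).

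**Figure D3:**
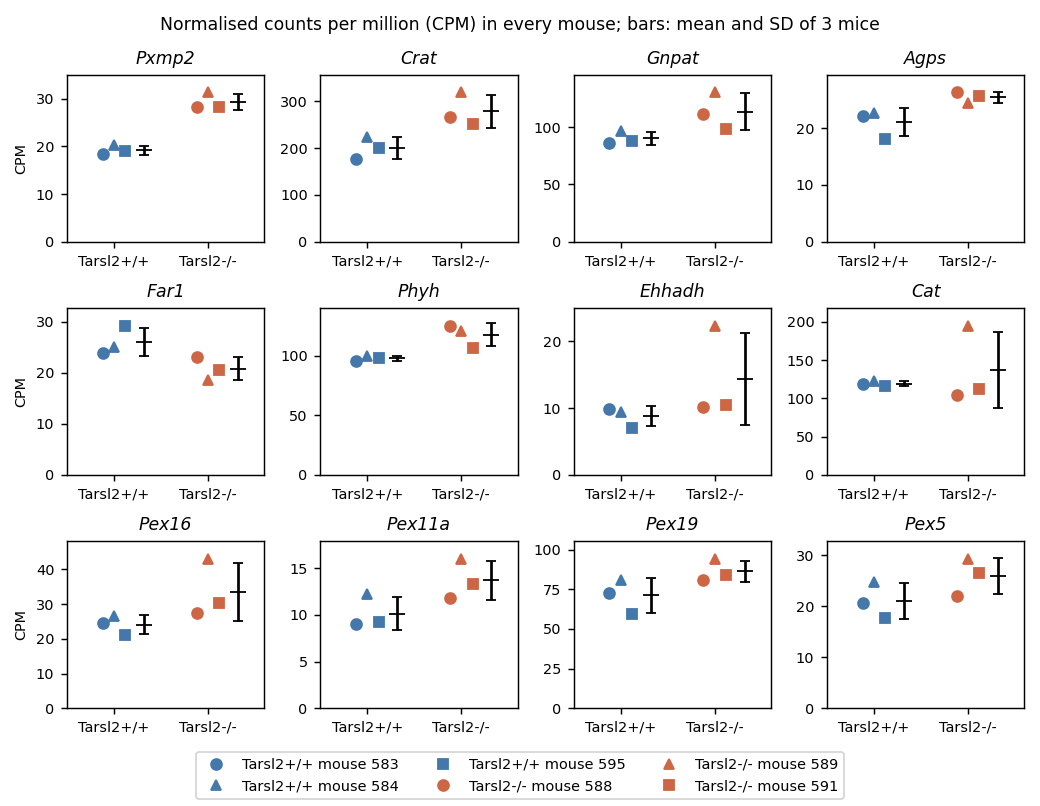
CPM in every mouse for 12 of the genes, 1 panel each, with WT mice in blue, KO mice in red, a symbol for each mouse (which pairs none of them) and the mean and SD of 3 mice in black, on axes that start at 0. *Pxmp2*, *Crat*, *Gnpat*, *Agps*, *Phyh*, *Ehhadh* and *Pex16* do not overlap between genotypes, nor does *Far1* in the opposite direction, while the KO triangle, mouse 589, stands far above the others in *Ehhadh* and *Cat*. Genotypes did not overlap in 25.8% of the 31 genes, against 24.6% of all tested genes.

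The beta-oxidation enzymes split. *Ehhadh*, the bifunctional enzyme of the classical pathway, was at 9.82, 9.46 and 7.03 CPM in the WT mice and at 10.1, 22.3 and 10.5 in the KO mice. KO mice 588 and 591 were just above the highest WT mouse and mouse 589 was far above all others. The log2 fold change of 0.70 (SE 0.27, adjusted p = 0.183 by edgeR) was 0.24 without mouse 589 (adjusted p = 0.530). The intervals of the other 4 all included 0. *Acaa1a*, the thiolase, had 0.0053, with an interval from -0.18 to 0.19, and reads could have been split with its close copy *Acaa1b*. The exons of *Acaa1a* share 290 bases with those of *Myd88* on the opposite strand. *Myd88* had 1066 counts over the 6 libraries, against 7073 for *Acaa1a*. *Hsd17b4*, the bifunctional enzyme for branched and very long chains, had -0.077 (-0.29 to 0.14), and *Acox3*, an oxidase for branched acyl-CoA, -0.038 (-0.35 to 0.28). *Scp2* was at 223, 253 and 202 CPM in the WT mice and at 236, 283 and 232 in the KO mice, which overlapped, with a log2 fold change of 0.15 (adjusted p = 0.513). *Cat* was at 119, 123 and 117 CPM in the WT mice and at 105, 195 and 113 in the KO mice. Mice 588 and 591 lay below all WT mice, mouse 589 far above them, and the log2 fold change turned from 0.20 (adjusted p = 0.604) to -0.13 without mouse 589 (adjusted p = 0.565).

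None of the peroxins passed the threshold, and the genotypes did not overlap in 1 of the 13 (7.69%), against 24.6% of all tested genes. The 4 with the smallest p all had positive fold changes. *Pex16* inserts membrane proteins together with *Pex3* and *Pex19*. *Pex16* (chromosome 2, 92374676 to 92381217) was at 24.6, 26.7 and 21.1 CPM in the WT mice and at 27.3, 42.9 and 30.2 in the KO mice. All KO mice were above all WT mice, mouse 589 by far, with a log2 fold change of 0.47 (SE 0.16, adjusted p = 0.132 by edgeR), and 0.26 without mouse 589 (adjusted p = 0.355). *Pex19*, the chaperone and receptor for new membrane proteins, was at 72.8, 81.1 and 59.3 CPM against 81.1, 93.9 and 83.9, so that 1 WT and 1 KO mouse were level. The log2 fold change was 0.28 (adjusted p = 0.208). *Pex3*, the membrane anchor of *Pex19*, had 0.085, with an interval from -0.16 to 0.33. Its exons share 249 bases with *Adat2* on the opposite strand.

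*Pex11a* and *Pex11g* take part in the elongation and division of peroxisomes. *Pex11a* was at 9.003, 12.2 and 9.24 CPM in the WT mice and at 11.8, 16.0 and 13.4 in the KO mice, and overlapped in 1 mouse of each genotype. On the log2 scale it differed by 0.43 (SE 0.15, adjusted p = 0.153 by edgeR), and 0.31 without mouse 589. *Pex11g*, with the fewest counts, had 0.36, with an interval from -0.20 to 0.91, and a difference was not detectable at this depth. *Pex5*, the receptor that carries most enzymes into the matrix, was at 20.6, 24.8 and 17.7 CPM in the WT mice and at 22.1, 29.2 and 26.4 in the KO mice, which overlapped. The log2 difference was 0.30 (adjusted p = 0.258). *Pex7*, the receptor for the less common signal, had -0.11, with an interval from -0.30 to 0.08.

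In the rest of the import machinery every interval included 0. The docking proteins *Pex13* and *Pex14* had 0.16 (-0.04 to 0.37) and 0.063 (-0.27 to 0.40). *Pex2* and *Pex10*, ubiquitin ligases that mark the receptor for recycling, had -0.038 (-0.23 to 0.15) and -0.079 (-0.33 to 0.17). *Pex6*, an ATPase that pulls the receptor out, had 0.15 (-0.16 to 0.45), and its membrane anchor *Pex26* -0.028 (-0.48 to 0.43). Over all 31 genes, the interval lay within 1 log2 unit on either side of 0 in 30, the exception being *Ehhadh*, so that a doubling or halving was outside the interval of the others.

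KO mouse 589 was highest in 9 of the 13 peroxins and in 13 of the other 18 members, and WT mouse 595 was lowest in 6 and 8 of them. The matching shares of all tested genes were not computed. Leaving out mouse 589 lowered the log2 fold change of 25 of the 31 genes, which in part follows from its being highest in most. Then 8 peroxins and 12 others were above 0, *Acox3* among the latter having been below 0 with all mice. The summed level of the 10 adipocyte markers was highest in the same KO mouse, though *Lep* and *Ucp1* were highest in WT mice. Relative to the mean of the 6 mice, their median log2 level was 1.16 in KO mouse 589 and 0.36 in WT mouse 584, and between -0.51 and -0.23 in the others. Adiponectin (*Adipoq*), an adipocyte hormone, was at 114, 195 and 102 CPM in the WT mice and at 119, 313 and 121 in the KO mice. The 10 markers, none of them at 0, summed to between 2809 and 4413 CPM in WT and between 3370.0 and 7609 in KO muscle, and 8 of 10 had fold changes above 0, with none past the threshold. The 10 slow fibre markers, all detected, summed to between 1079 and 1861 CPM in WT and between 1531 and 2279.8 in KO muscle. Their median log2 level was highest in mouse 589, at 0.58, and in WT mouse 595, at 0.20, and lowest in WT mouse 583, at -0.51. Of these markers 10 of 10 had fold changes above 0 and none passed. The 10 fast fibre markers summed to between 99119 and 108546 CPM in WT and between 102618 and 114676 in KO muscle. Of the 9 tested, 6 had fold changes above 0 and 3 below, and 2 passed (*Myh1* and *Actn3*), both higher in KO muscle. The part of fibre type in the peroxisomal values was not tested. For the adipocyte markers, leaving out the highest library of each genotype, WT mouse 584 and KO mouse 589, gave medians of 0.14 for the peroxins and 0.16 for the others, with 9 and 13 genes above 0. *Pxmp2* was then at 0.60 (adjusted p = 0.0273 by edgeR), *Crat* at 0.46 (0.0655), *Ehhadh* at 0.30 (0.409) and *Cat* at -0.11 (0.621). This pair was chosen after the values were seen. With only WT mouse 584 left out the medians were 0.20 and 0.24, and with only KO mouse 589 left out 0.027 and 0.063. The part of adipocytes in the peroxisomal values was not tested.

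**Figure D4:**
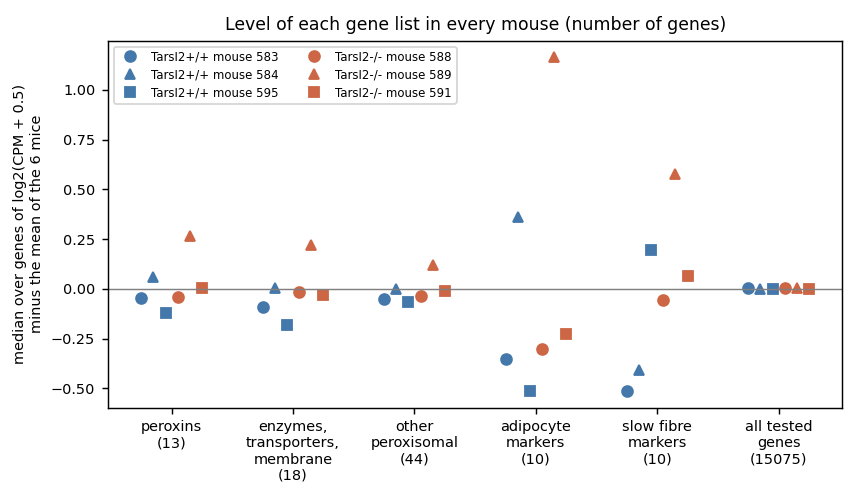
Median over the genes of each list of log2(CPM + 0.5) minus the mean of the 6 mice, 1 symbol per mouse, WT in blue and KO in red, with the number of genes in brackets. KO mouse 589 is highest in both groups of peroxisomal genes, at 0.27 and 0.22, and in the adipocyte and slow fibre markers, at 1.16 and 0.58, whereas all tested genes stay near 0 in every mouse.

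**Figure D5:**
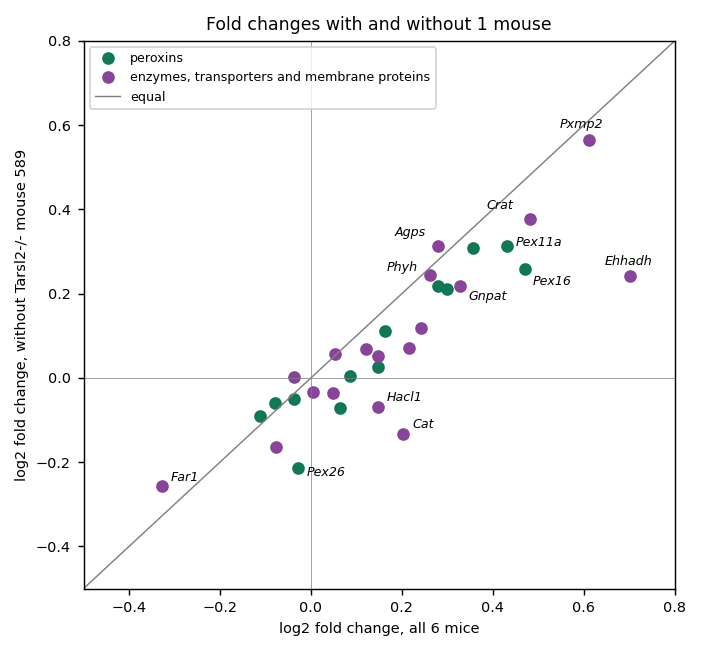
Log2 fold change (KO over WT) of each of the 31 genes from all 6 mice (x axis) and without KO mouse 589 (y axis), with a line where both are equal. Most points lie below the line, *Ehhadh* drops from 0.70 to 0.24 and *Cat* from 0.20 to -0.13, whereas *Pxmp2* stays at 0.56 and *Agps* at 0.31.

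A further 56 genes of the peroxisome were listed, of which 44 had enough reads to be tested. By edgeR 2 of the 44 were past the threshold, both higher in KO muscle. Of all tested genes 2.27% passed in either direction and 0.896% were past it and higher in KO muscle. The median log2 fold change of the 44 was 0.08, with 29 above 0. *Mlycd*, the malonyl-CoA decarboxylase, which mitochondria and cytosol also hold, was at 70.0, 74.1 and 75.2 CPM in the WT mice and at 99.0, 104 and 107 in the KO mice, well apart. The log2 fold change was 0.50 (SE 0.081, adjusted p = 0.0124 by edgeR). With 1 library left out at a time it passed in 4 of 6 fits, and failed without WT mouse 583 (0.46, adjusted p = 0.0745) and without KO mouse 591 (0.47, adjusted p = 0.0565). *Eci2*, an isomerase for unsaturated chains, was at 65.9, 72.3 and 74.3 CPM against 91.7, 95.4 and 89.9, or 0.38 on the log2 scale (SE 0.083, adjusted p = 0.0399). *Eci2* passed in 1 of those 6 fits, the one without WT mouse 584, and the others gave adjusted p-values from 0.0803 to 0.167. *Ech1*, another isomerase of that route, was at 214, 238 and 191 CPM against 259, 348 and 283 and had 0.47 (adjusted p = 0.0732), again with mouse 589 highest. *Ech1* was past the threshold with DESeq2 (0.47, adjusted p = 0.00792) and without WT mouse 584 (0.55, adjusted p = 0.0439 by edgeR). Over the fits that left out 1 library, its adjusted p ran from 0.0439 to 0.221.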

How the data were processed

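Muscle RNA of 3 Tarsl2+/+ and 3 Tarsl2-/- mice was sequenced, 1 library per mouse. Per the study's methods, reads were mapped to mm10 (GRCm38) with HISAT2, whereas the submitters' processing notes name Bowtie 0.12.2 and mm8. The counting tool, its annotation and its use of strand are not given in the sources used here. The table deposited by the authors holds raw read counts, as whole numbers without normalization, for 53084 genes. Rows without a gene name held 0.120% of the counts. The table also lists a gene length, deposited for every gene as another kind of value. This length was compared with the exon union of GENCODE vM21, and no value given here rests on it.

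Genes were kept by filterByExpr (minimum count 10, minimum total 15), which left 15075 genes, with TMM scaling, and the quasi-likelihood test of edgeR 4.0.16 was run in R 4.3.3 with genotype alone in the model. Benjamini-Hochberg adjustment covered all tested genes, with a threshold of 0.05. Standard errors were obtained from the fold change and its F statistic, and 95% intervals from the t distribution of the fit. RPKM values were computed from TMM library sizes and the exon union length. The procedure was tested on simulated data. Alternatives were RLE and upper quartile scaling, DESeq2 1.42.0, limma-voom (limma 3.58.1), no filter beyond 1 count, at least 10 counts in every library, each library left out in turn and, chosen after seeing the data, WT mouse 584 and KO mouse 589 left out together.

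The 31 members and the other gene lists were chosen with earlier results of these data known. The genes named were all members, with every mouse's value for the member past the threshold, the 4 peroxins and the 8 other members with the smallest p and the 3 members with the highest RPKM. Of the other peroxisomal genes, those past the threshold and the 3 with the smallest p were named. Coordinates are those of the table, and 27 of 31 members have the same ones in vM21.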

Additional observations from a re-analysis of the deposited data

How the results depend on the processing

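No paired analysis was possible because the sources used here do not say which WT and KO mice, if any, shared a litter. RLE scaling, upper quartile scaling, limma-voom and at least 10 counts in every library gave between 318 and 363 genes past the threshold, with *Pxmp2* as the 1 member in each. With DESeq2, the tool named in the study's methods, 719 genes passed (310 higher and 409 lower in KO muscle). Among them were 2 of the 18 enzymes, transporters and membrane proteins and 3 other peroxisomal genes. With no filter on low counts it was 1437 genes (611 higher and 826 lower), 2 peroxins, 4 of the 18 and 8 other peroxisomal genes, all members among them higher in KO muscle. The cause of these larger counts was not tested. Without WT mouse 584 and KO mouse 589 together, 1 other peroxisomal gene passed in place of 2.

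Across the fits that left out 1 library, between 81 genes (without WT mouse 583) and 625 genes (without WT mouse 584) passed, from 0 to 2 of the 18 members, 0 peroxins and from 0 to 3 other peroxisomal genes. The median log2 fold change ran from 0.0267 to 0.20 for the peroxins and from 0.0628 to 0.24 for the 18 others, lowest without KO mouse 589 in both.

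Several genes changed sign without passing, among them *Hacl1* and *Cat*, which were at 0.15 and 0.20 with all mice. *Acaa1a* was at -0.0168 with upper quartile scaling. Without WT mouse 584 and KO mouse 589, *Pex10* was at 0.0173, *Pex3* at -0.000837, *Abcd3* at -0.0502, *Acox3* at 0.10, *Hacl1* at -0.0208 and *Cat* at -0.11. Over the fits that left out 1 library, the log2 fold change ran from -0.0718 to 0.18 for *Pex14*, from -0.0855 to 0.0186 for *Pex2*, from -0.21 to 0.0876 for *Pex26*, from -0.0349 to 0.10 for *Abcd3*, from -0.10 to 0.0611 for *Acox3*, from -0.0420 to 0.0502 for *Acaa1a*, from -0.0681 to 0.25 for *Hacl1*, from -0.0168 to 0.10 for *Amacr* and from -0.13 to 0.36 for *Cat*. Of 403 values of members under the alternatives, 374 kept their direction and their side of the threshold. A further 21 changed sign, 7 came past the threshold and 1 no longer passed it. Depth was least for *Pex11g*, down to 32 counts in a library, and the common biological coefficient of variation was 12.1%.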
